A study of Rattus norvegicus with 4 samples.

Results

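Nuclear-encoded genes for the respiratory chain complexes and the ATP synthase of mitochondria were followed, complex by complex, in liver RNA of rats given ciprofibrate. Members were chosen by gene symbol, as every spot with a single gene symbol in the probe annotation that begins with Nduf, Uqcr or Atp5, or is Sdha to Sdhd, Cyc1, Cycs or a Cox gene numbered 4 to 8. The rule took 71 of 7688 spots, which were 42 genes with 1 clone each, of 3102 named genes on the array. Of these, 37 genes had a ratio on all 4 arrays and could be tested. The other 5, Ndufa4 and Ndufv3 of complex I, Uqcrc1 of complex III and the ATP synthase genes Atp5f1a and Atp5pf, had no ratio on any array, which is 11.9% of the members against 13.0% of all 5674 clones.

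Female Fischer rats received ciprofibrate, a fibrate drug that activates the nuclear receptor PPAR-alpha, at 50 mg per kg body weight and day for 60 days. Total liver RNA of 4 treated rats, 1 rat on each array, was hybridised on a cDNA array with 2 colours against a single RNA pool from 5 control rats of the same tissue. Neither age nor vehicle is given in the sources used here, and the rats are not numbered in the labels. If arrays shared a rat, the p-values would measure only technical spread; replicate numbers only name the arrays. Each value is a log2 ratio with the array median set to 0. The labels list the treated liver first and the pool second but name no dye, so the direction is likely, not settled: a positive ratio is read as higher in treated liver. The other basis of that reading is 16 measured genes known to be induced by peroxisome proliferators, a list chosen with earlier results of these data known. Over all clones 48.9% had a positive mean, 13.6% were called positive and 15.0% negative. Among the listed genes 12 had a positive mean and 4 a negative one, with 5 called positive and 1 negative. The called genes of smallest p were Ech1 (0.67 ± 0.10), Crot (0.67 ± 0.12) and Me1 (0.43 ± 0.08), enzymes of fatty acid oxidation, acyl transfer and NADPH supply, and on the negative side Acot2 (-0.39 ± 0.09), an acyl-CoA thioesterase. This basis was thinner after correction for slide position, with 11 positive and 5 negative means. Then only Ech1 and Me1 of the 16 were called positive, Crot and Acot2 were not called, and Cpt1a, the carnitine palmitoyltransferase of liver, was called negative (-0.35 ± 0.09). The pool is 1 control sample, so the spread between control rats enters no test. The number of arrays limits the precision, and ratios give no level, so the liver markers cannot be checked for their abundance.

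The respiratory chain sits in the inner mitochondrial membrane. Complexes I and II pass electrons from NADH and succinate to coenzyme Q, complex III passes them on to cytochrome c, and complex IV hands them to oxygen, while complexes I, III and IV pump protons. Complex V, the ATP synthase, lets the protons flow back and makes ATP. Nuclear respiratory factor 1 (NRF1) and GABP are known regulators of many of these genes, and fibrates are known in rodent liver for inducing peroxisomal and mitochondrial fatty acid oxidation, which feeds this chain.

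The complexes did not share one sign. All 7 measured ATP synthase genes and 9 of 11 complex IV genes had a positive mean, all 3 measured complex III genes a negative one, and complex I was divided, 7 positive and 5 negative. The median log2 ratio was 0.26 for complex V, 0.19 for complex IV, 0.02 for complex I, -0.004 for the 2 genes of complex II and -0.37 for complex III, beside -0.01 over the 4704 clones tested. The sizes were small: the largest mean difference of any member, that of Ndufa11, was 1.85-fold. A gene was called when its mean ratio differed from 0 at a Benjamini-Hochberg adjusted p under 0.05 in limma, adjusted over all 4704 clones. Ndufaf3, Cox6c, Cox8a, Cox8b, Cycs and Atp5po were called positive, Ndufa11, Sdha and Cyc1 were called negative, and 28 members were not called. Over all clones 13.6% were called positive and 15.0% negative, so 6 and 3 of 37 members lie near and below the background. On all 4 arrays 17 members were positive, against 27.2% of all clones, and 6 were negative, against 25.6%. In whole liver, fewer cells of a type and less RNA per cell cannot be told apart.

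**Figure D1:**
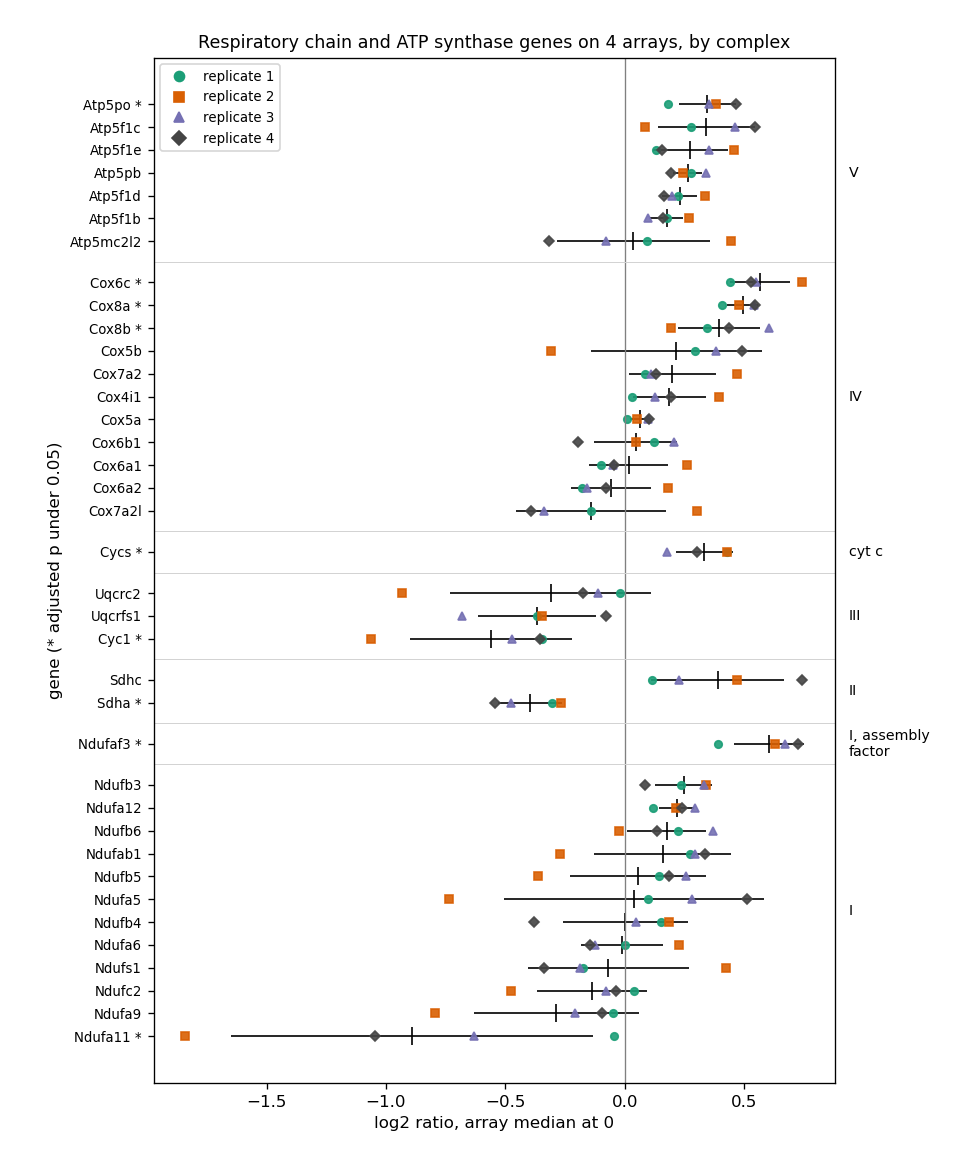
Log2 ratio of each of the 37 measured genes on each array, grouped by complex (x axis: log2 ratio with the array median at 0; each symbol is 1 array; vertical tick and bar: mean and SD over 4 arrays; an asterisk marks an adjusted p under 0.05 in limma). All 12 values of complex III lie below 0 and 26 of 28 values of complex V above it, while replicate 2 often stands apart.

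Where a clone was printed on the slide moved with its ratio. Clones in the left of the inferred printing columns had a median of 0.15 and those in the right -0.16, and the left held 94.8% of all positive calls. The columns were inferred from these same values, so the contrast between them is not an independent finding. All 6 members called positive lay in the left column and all 3 called negative in the right. Results for the complexes and for called members are therefore also given after a smooth position surface was subtracted from each array, which brought both columns to a median of -0.03. Then Ndufb3 and Atp5f1b were called positive, Sdha and Uqcrfs1 negative, and 33 members were not called. Sdha was the only member called both ways. Over all clones 2.85% were then positive and 11.3% negative. Complexes I to V then had medians of 0.077, -0.027, -0.349, 0.125 and 0.228, in that order. Complex I again had 7 positive and 5 negative means. With the surface removed 18 of 37 members were positive on all 4 arrays, against 28.8% of clones, and 4 were negative, against 26.8%. The median of all 37 members was 0.16 before and 0.13 after, and the 14 members on the left went from 0.34 to 0.10 while the 23 on the right went from 0.02 to 0.14. The part that position has in any single ratio was not tested.

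**Figure D2:**
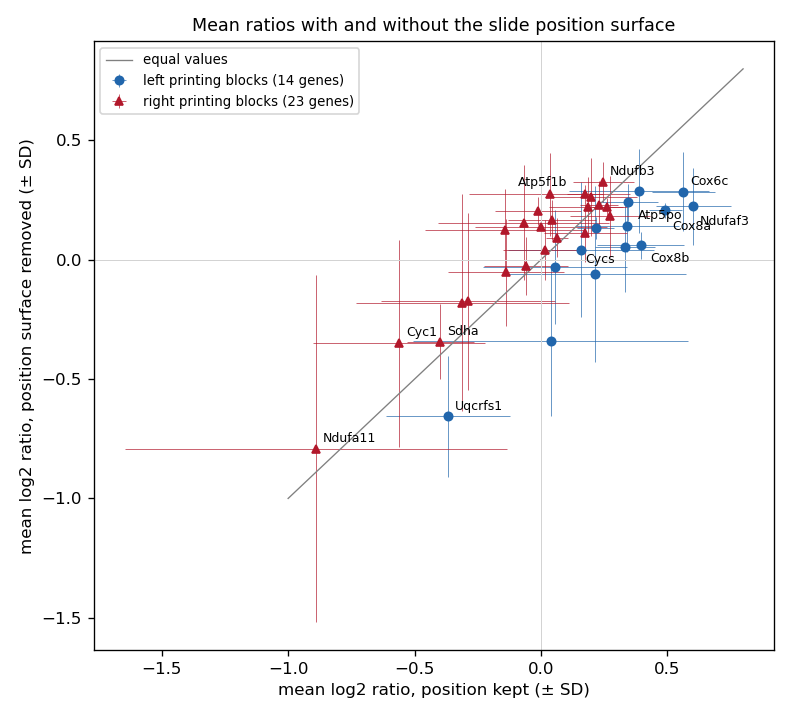
Mean log2 ratio of each member with the slide position kept (x axis) and with the position surface removed (y axis), both with SD over 4 arrays. The 14 genes of the left printing blocks lie mostly below the line of equal values and the 23 of the right blocks mostly above it, and members called in either fit are named.

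Among the genes called with position kept, 4 have a match to one of the searched regulator motifs in the stretch before their start site, and these stretches are shown because the called genes of both signs hold one. The letters searched on both strands were GCGCATGCG for the NRF1 core and CCGGAAG for GABP, an ETS family factor. Sequences are from the RefSeq promoter table (GRCr8), 250 bases before to 50 after the gene start, read 5′ to 3′ on the gene's strand. Each shows up to 40 bases on either side of the matches and stops before the start site, and capitals mark the motif, on either strand and with overlapping matches joined.
Atp5po (chr11:44657493-44657582, - strand): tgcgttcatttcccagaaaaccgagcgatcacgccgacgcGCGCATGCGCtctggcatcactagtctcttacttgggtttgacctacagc
Cycs (chr4:80984877-80984965, - strand): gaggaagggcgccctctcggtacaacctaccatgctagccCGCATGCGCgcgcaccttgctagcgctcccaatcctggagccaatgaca
Ndufa11 (chr9:1637477-1637572, + strand): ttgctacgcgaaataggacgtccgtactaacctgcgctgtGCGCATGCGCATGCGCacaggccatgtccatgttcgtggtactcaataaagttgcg
Cox8a (chr1:213833624-213833720, - strand): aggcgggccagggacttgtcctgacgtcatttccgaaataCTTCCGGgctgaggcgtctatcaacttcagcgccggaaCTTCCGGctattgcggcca
Capitals in Atp5po, Cycs and Ndufa11 mark the NRF1 core and those in Cox8a the GABP motif. Of the members, 39 have a promoter in the table, and Cox6a1, Cox6c and Cyc1 have none. The counts by call therefore leave out Cox6c, which was called positive, and Cyc1, which was called negative. The NRF1 core was found in 4 of them (10.3%) against 1.52% of all 33469 promoters, the fourth being Uqcrc1, and the GABP motif in 9 (23.1%) against 8.75%. By call with position kept, either motif was in 3 of 5 promoters of positive genes, 1 of 2 of negative genes, 6 of 27 of genes not called and 3 of 5 of unmeasured genes. The split depends on that form of the calls. Ndufb3, Atp5f1b, Sdha and Uqcrfs1, the members called with the surface removed, hold neither motif. A PPAR element, searched as a direct repeat of AGGTCA with 1 base between the copies, was in 0 of 39 against 0.0538% of all promoters. The exact PPAR pattern was in only 18 of all 33469 promoters, so 0 of 39 does not set the members apart. A match only says that these letters are there, and no match only that these exact letters are not in this stretch.

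Complex I, the NADH dehydrogenase, gave ratios on both sides of 0. Of its 12 measured subunits 1, Ndufa11, was called, and 2 were positive and 2 negative on all 4 arrays. Ndufa11, an accessory subunit of the membrane arm, read -0.04, -1.84, -0.63 and -1.05 on replicates 1 to 4, with a mean of -0.89 ± 0.76 (SD, n = 4; adjusted p = 0.035). It was near 0 on replicate 1 and lowest of all members on replicate 2. Without replicate 2 its mean was -0.57, and it was not called without replicate 3 or 4 (adjusted p = 0.062 and 0.099). The call was also lost with the surface removed, at -0.79 ± 0.73 and an adjusted p of 0.082. Ndufa9, an accessory subunit next to the coenzyme Q site, had the next largest mean, at -0.29 ± 0.34 (adjusted p = 0.16), with -0.05, -0.79, -0.21 and -0.09 on the 4 arrays. Again replicate 2 was lowest.

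Ndufb3, another accessory subunit of the membrane arm, read 0.23, 0.34, 0.33 and 0.08, with a mean of 0.25 ± 0.12 (adjusted p = 0.093). All 4 arrays were positive. After the surface was subtracted it read 0.29, 0.44, 0.33 and 0.25, a mean of 0.33 ± 0.08, and was called (adjusted p = 0.035). That call was lost without replicate 1, 3 or 4, where the adjusted p lay between 0.108 and 0.175. The remaining 9 subunits had means from -0.14 for Ndufc2 to 0.22 for Ndufa12, and among them were Ndufs1, the iron-sulfur core subunit of the matrix arm, at -0.07 ± 0.34, and Ndufab1, the mitochondrial acyl carrier protein, at 0.16 ± 0.29. The subunits disagreed most on replicate 2: Ndufs1 read 0.42 there and Ndufa5, an accessory subunit of the matrix arm, -0.73, against 0.51 for Ndufa5 on replicate 4. The median of complex I was 0.11, -0.15, 0.15 and 0.02 on the 4 arrays.

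Ndufaf3, which helps to assemble complex I and is no part of the finished enzyme, had the largest positive mean of all members. It read 0.39, 0.63, 0.67 and 0.72, a mean of 0.60 ± 0.15 or 1.52-fold (adjusted p = 0.0086). It stayed called without any 1 array when position was kept. Its mean after removal of the surface was 0.22 ± 0.16 (adjusted p = 0.11), and it was not called.

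The measured genes of complex II, the succinate dehydrogenase, went opposite ways. Sdha, the flavoprotein that oxidises succinate, read -0.31, -0.27, -0.48 and -0.54, a mean of -0.40 ± 0.13, a 1.32-fold difference (adjusted p = 0.025). It was negative on every array and kept its call with the surface removed, at -0.34 ± 0.16 (adjusted p = 0.047). It was not called in either fit without replicate 1, 3 or 4. Sdhc, which anchors the enzyme in the membrane, read 0.11, 0.47, 0.23 and 0.74, a mean of 0.39 ± 0.28 (adjusted p = 0.052), and 0.29 ± 0.18 with the surface removed (adjusted p = 0.073). The values of these 2 genes did not overlap, Sdhc being above 0 and Sdha below it on all 4 arrays. They lie in different printing columns, Sdhc in the left and Sdha in the right.

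Complex III, the cytochrome bc1 complex, was the only one in which every measured value, 12 of 12 with position kept, was negative. Cyc1, its haem-carrying cytochrome c1, read -0.35, -1.06, -0.47 and -0.36, a mean of -0.56 ± 0.34, a 1.47-fold difference (adjusted p = 0.025), and was not called without replicate 1, 3 or 4. Uqcrfs1, the Rieske iron-sulfur protein, read -0.37, -0.35, -0.68 and -0.08, a mean of -0.37 ± 0.25 (adjusted p = 0.052). Uqcrc2, a core protein, read -0.02, -0.93, -0.11 and -0.18, a mean of -0.31 ± 0.42 (adjusted p = 0.17). Replicate 2 held the lowest value of Cyc1 and Uqcrc2 but not of Uqcrfs1. With the surface removed Uqcrfs1, a clone of the left column, became more negative, at -0.58, -0.54, -1.03 and -0.48 with a mean of -0.66 ± 0.25, and was called (adjusted p = 0.017), while Cyc1 was not (-0.35 ± 0.43, adjusted p = 0.17). The call of Uqcrfs1 was lost without replicate 3 (adjusted p = 0.055). Over all 4 arrays with the surface removed, 3 of the 12 values of the complex were positive, and its median, -0.35 on 4 arrays, was -0.14 without replicate 2.

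Cycs, the cytochrome c that carries electrons from complex III to complex IV, read 0.43, 0.43, 0.18 and 0.30. Its mean was 0.33 ± 0.12 or 1.26-fold (adjusted p = 0.040), above every value of complex III. It was not called without replicate 1, 3 or 4. Once position was taken out it read 0.22, 0.21, -0.15 and -0.07, a mean of 0.05 ± 0.19 (adjusted p = 0.66), with arrays on both sides of 0.

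Complex IV, cytochrome c oxidase, had 3 genes called positive and 0 called negative by limma among 11, the same counts as at an unadjusted p under 0.05. Cox6c, a small subunit around the catalytic core, read 0.44, 0.74, 0.55 and 0.53, a mean of 0.56 ± 0.13 or 1.48-fold (adjusted p = 0.0093). Cox8a, another small subunit, read 0.41, 0.48, 0.54 and 0.54, a mean of 0.49 ± 0.06 or 1.41-fold (adjusted p = 0.011). Both were above 0 on every array, Cox6c was called without any 1 array and Cox8a lost its call without replicate 3 (adjusted p = 0.066). Cox8b, the heart and muscle isoform of the same subunit as Cox8a, read 0.35, 0.19, 0.60 and 0.44, a mean of 0.39 ± 0.17 (adjusted p = 0.030), and was not called without replicate 1, 3 or 4 (adjusted p = 0.082, 0.16 and 0.11). Once the surface was subtracted the means were 0.29 ± 0.16 for Cox6c, 0.21 ± 0.03 for Cox8a and 0.06 ± 0.06 for Cox8b, with adjusted p of 0.070, 0.078 and 0.51. Then limma called 0 of the 11 genes, 4 being positive at an unadjusted p under 0.05, with 9 positive and 2 negative means.

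The other tissue isoforms of complex IV lay closer to 0. Cox6a1, the liver form, read -0.10, 0.26, -0.05 and -0.05, a mean of 0.02 ± 0.16 (adjusted p = 0.92), and Cox6a2, the heart and muscle form, -0.18, 0.18, -0.16 and -0.08, a mean of -0.06 ± 0.17 (adjusted p = 0.69). Both were positive on replicate 2 alone, and their values overlapped. Cox7a2, the liver form of subunit 7a, read 0.08, 0.47, 0.11 and 0.13, a mean of 0.20 ± 0.18 (adjusted p = 0.19), and Cox7a2l, a related protein of supercomplex assembly, -0.14, 0.30, -0.34 and -0.39, a mean of -0.14 ± 0.32 (adjusted p = 0.45). Cox4i1, the ubiquitous form of subunit 4, read 0.03, 0.39, 0.12 and 0.19, a mean of 0.19 ± 0.15 (adjusted p = 0.20). The only marker of muscle measured, Tnnt3, had a mean of 0.15 and was not called. Cox5a, Cox5b and Cox6b1, which complete the list, had means of 0.07 ± 0.04, 0.21 ± 0.36 and 0.04 ± 0.17.

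Complex V, the ATP synthase, was the most even of the larger groups. Of 28 values 26 were positive, from -0.32 to 0.54, and both negative ones were of Atp5mc2l2, a c-ring subunit like gene. Atp5po, the OSCP subunit that ties the catalytic head to the stalk, read 0.18, 0.38, 0.35 and 0.47, a mean of 0.35 ± 0.12 or 1.27-fold (adjusted p = 0.036). Atp5f1c, the gamma subunit that forms the turning shaft, read 0.28, 0.09, 0.46 and 0.54, a mean of 0.34 ± 0.20 (adjusted p = 0.053). Only Atp5po was called, and not without replicate 1, 3 or 4. Atp5f1b, the catalytic beta subunit, read 0.18, 0.27, 0.10 and 0.16, a mean of 0.17 ± 0.07 (adjusted p = 0.19). Atp5f1e, Atp5pb and Atp5f1d, the epsilon, b and delta subunits, had means of 0.27 ± 0.16, 0.26 ± 0.06 and 0.23 ± 0.07 (adjusted p = 0.081, 0.067 and 0.099) with every array positive. With the surface removed all 28 values were positive, between 0.08 and 0.48. Atp5f1b, at 0.27 ± 0.04, was then called (adjusted p = 0.046) and Atp5po, at 0.24 ± 0.08, was not (adjusted p = 0.065). The call of Atp5f1b was lost without replicate 1, 3 or 4, where the adjusted p lay between 0.136 and 0.193. The 5 genes in the right column all had a positive mean with position kept (median 0.23), against 29.8% of all tested clones there. The lowest of the 5, Atp5mc2l2, had a mean of 0.03 ± 0.32 with 2 arrays negative. The part of position in these ratios was not tested.

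The medians of complex V lay above those of complex III on every array. These complexes have the highest and the lowest median in these same data, and complex III has only 3 measured genes. In both forms complex V also lay above complexes I, II and IV on every array, and complex IV above complex III. Between complexes V and III the difference was 0.53, 1.27, 0.81 and 0.34 on replicates 1 to 4 with position kept, and 0.44, 1.19, 0.35 and 0.21 with the surface removed. The smallest p that an exact two-sided sign-flip test can reach with 4 arrays is 0.125, so that test could not reach the threshold, and no other test of this difference was run. The size depends on replicate 2, which had the largest difference in both forms. Markers of hepatocytes, the main cell of liver, had a low median on that array too. Of 12 marker clones of 11 genes, among them albumin (Alb), transferrin (Tf) and fibrinogen (Fgb), all 12 had a negative mean. Most of these clones lie in the right column, where 1620 of all 2309 tested clones had a negative mean. Of the markers 2 (Tf and Fgb) were called negative, or 16.7%, near the 15.0% of all clones. The list's median was -0.15, -0.93, -0.23 and -0.22 on the 4 arrays. With the surface removed all 12 means were still negative, against 2519 of all 4704 clones. Tf alone was then called, or 8.33% against 11.3% of all clones called negative. The array medians were -0.12, -0.86, -0.28 and -0.19. The part of these secreted-protein and enzyme transcripts in the ratios of complex III was not tested. Markers of other cells gave 4 positive and 2 negative calls among 8 clones of stellate cells and fibroblasts. These calls include both clones of Col1a2, in opposite directions: -0.58 ± 0.38 in the right column and 0.39 ± 0.17 in the left. Neither clone of Col1a2 was called with the surface removed (-0.38 and 0.32). Of the few clones for the rest, 1 of 2 leukocyte markers (Cd74) and 1 of 2 red cell markers (Hbb) were called negative, and 1 of 2 endothelial markers (Kdr), the bile duct marker Spp1 and the fat marker Fabp4 positive. None of the positive calls among these markers held with the surface removed. The negative calls of Cd74, Hbb and Acta2, a stellate cell and fibroblast marker, did hold. Their means were then -0.62 ± 0.13, -0.82 ± 0.28 and -0.998 ± 0.27 (adjusted p = 0.0089, 0.011 and 0.0061). The part of these markers in the positive ratios of complexes IV and V was not tested.

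**Figure D3:**
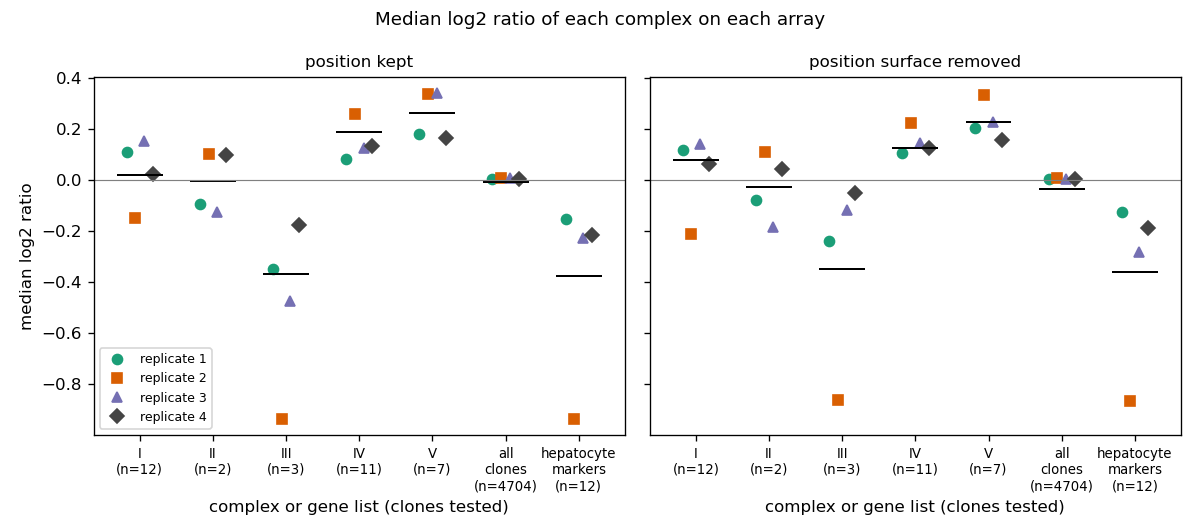
Median log2 ratio of each complex on each array (y axis; symbols: arrays; black line: median of the genes' means over 4 arrays), with all 4704 tested clones and 12 hepatocyte marker clones, with position kept (left) and the surface removed (right). On every array complex V lies above complex III, and on replicate 2 complex III and the hepatocyte markers are lowest.

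Most members were printed as a pair of spots, which shows how much of the spread lies within an array. In 25 genes with 100 measured pairs the median difference between the spots was 0.07, beside 0.09 over 6475 pairs of all clones. The median SD over the 4 arrays was 0.17 for all 37 tested members. That is a larger number, but another measure and a wider set of genes than the difference between spots. Large differences between spots touch genes named above. The spots of Atp5f1c read 0.46 and -0.32 on replicate 2 and 0.14 and 0.73 on replicate 3. Those of Uqcrfs1 differed by 0.44 to 0.49 on replicates 2, 3 and 4, and on replicate 4 one was 0.11 and the other -0.33. Pairs lay in the same printing block, so they share its position.

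**Figure D4:**
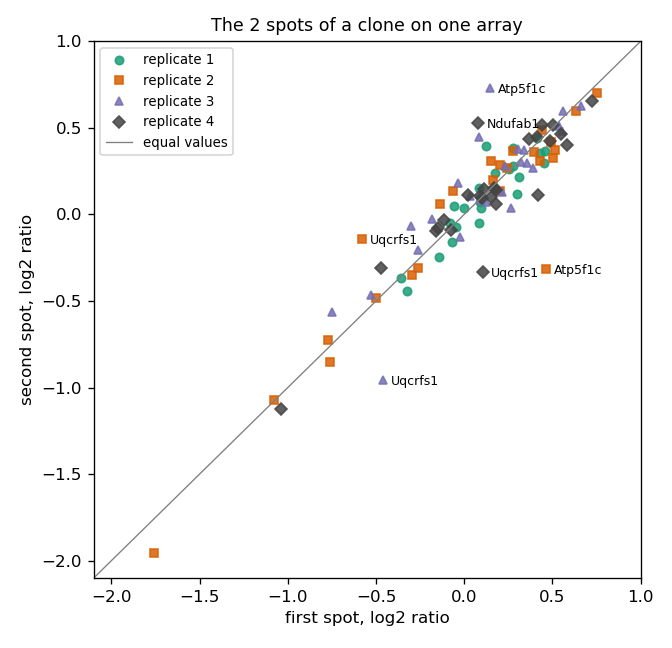
Log2 ratios of the first (x axis) and second spot (y axis) of a gene on the same array, 100 pairs of 25 genes, coloured by array. Most lie on the line of equal values, and the named exceptions are Atp5f1c, Uqcrfs1 and Ndufab1.

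Other mitochondrial genes, taken from lists chosen by function, were mostly not called. The same holds for all clones, of which 3360 of 4704 were not called with position kept and 4039 with the surface removed. Among 11 assembly and copper or haem delivery factors 1, Bcs1l, was called negative with position kept (-0.47 ± 0.33, adjusted p = 0.037). Bcs1l, which inserts the Rieske protein into complex III, was not called with the surface removed (-0.22 ± 0.39, adjusted p = 0.30). The 3 genes of coenzyme Q and electron input, with a median of 0.35, and the 9 of the citric acid cycle and pyruvate dehydrogenase, with a median of 0.11, held 0 calls by limma with position kept, and 1 positive gene each at an unadjusted p under 0.05. The 3 coenzyme Q genes all lay in the left column, and removal of the surface took their median to -0.02, with 1 positive and 2 negative means, and that of the citric acid cycle list to 0.05. Pdk2, a kinase that switches off pyruvate dehydrogenase, was called negative after the surface was removed (-0.70 ± 0.20, adjusted p = 0.010). Among 7 carriers 1, the dicarboxylate carrier Slc25a10, was called negative both ways, at -0.36 ± 0.17 (adjusted p = 0.038) and -0.63 ± 0.13 (adjusted p = 0.0082).

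The 16 genes of mitochondrial translation leaned the other way from complexes IV and V, with 5 positive and 11 negative means and a median of -0.27. The surface removed, these were 3, 13 and -0.18. Gfm1, an elongation factor (0.43 ± 0.21), and Mrpl23 (0.35 ± 0.12) were called positive, and the ribosomal proteins Mrpl1 (-0.47 ± 0.25), Mrps17 (-0.34 ± 0.10) and Mrpl49 (-0.29 ± 0.04) negative. Of these only Mrpl1 was called with the surface removed, where Mrps23 was also called negative (-0.44 ± 0.15). Among 15 import and chaperone genes, the chaperonin Hspe1 read 0.78 ± 0.12 (adjusted p = 0.0040) and the import motor protein Timm44 0.46 ± 0.16, both called positive, and Timm29, of the inner membrane translocase, -0.52 ± 0.09, called negative. Hspe1 and Timm29 kept their calls with the surface removed, and Pmpcb, a subunit of the processing peptidase, was then called positive (0.38 ± 0.20, adjusted p = 0.049). Of 2 measured regulators, Yy1, a transcription factor of many respiratory genes, was called positive in both forms (0.43 ± 0.20 and 0.37 ± 0.14), and Sirt3, a mitochondrial deacetylase, was called negative with the surface removed (-0.41 ± 0.19) but not before (-0.25 ± 0.33).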

How the data were processed

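The authors deposited 1 value per spot for each of 4 arrays, with no unit named. Judged by the numbers, these deposited values are log10 ratios, since raising 10 to each value gives a whole number of thousandths, within 0.02, for at least 99.987% of spots. Medians of the deposited log10 values were -0.02, -0.04, -0.03 and -0.05. For direction, dyes, scanner, background correction and any centring by the authors, nothing is given in the sources used here. The most repeated value of each array, on 1171 to 1189 spots, was set to missing, which left 6499 to 6517 measured spots. No intensities were used.

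Values were turned to log2, spots of a listed clone averaged and each array centred on its median, which shifted it by -0.08 to 0.03. Clones with values on all 4 arrays were tested against 0 in R 4.3.3 with limma 3.58.1 (lmFit, eBayes, two-sided, Benjamini-Hochberg over 4704 clones), checked on simulated data. The simulated noise was independent between clones and had no position trend, so that check cannot speak to calls that follow slide position. The layout, 8 blocks of 31 by 31 spots in 2 columns, is inferred from the values; the position surface is a robust loess (span 0.05, degree 1, 4 iterations). Across arrays, ratios of all tested clones correlated at 0.468 to 0.758.

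Of 7688 spots, 5252 are in the annotation, 5169 with 1 symbol, 83 with several and 2436 not listed. Symbols updated through Entrez numbers gave the same 42 genes. Members, lists and markers were chosen with earlier results of these data known. Full values are given for members past the threshold in either form, the 2 of largest absolute mean in each complex and tissue isoforms; of each list, the called members, at most 3 of each sign. No list was tested. Alternatives were other centrings, position corrections, row units, weights and priors, the repeated value kept, and each array left out.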

Additional observations from a re-analysis of the deposited data

Results flagged for a closer look

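Single arrays stood far from the other 3 for 4 members, each time replicate 2. There Ndufab1 read -0.27 and Uqcrc2 -0.93, both below the rest, while Cox7a2 read 0.47 and Cox6a1 0.26, both above. The gap to the nearest array exceeded the 95% critical value of Dixon's test. Chance alone marks about 1 in 20 groups; here it was 10.8% of members and 8.52% of all clones (401 of 4704). Replicate 2 was the lowest array for 12 of 37 members and the highest for 16.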

How the results depend on the processing

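Complex V had positive means in 7 of 7 measured genes, and complex III negative means in 3 of 3, under most settings. The exceptions were 6 of 7 with array weights and without replicate 2, 7 of 9 with the repeated value kept, and, for complex III, 2 of 3 with the surface removed and without replicate 2. Calls moved far more, and the cause was not tested.

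Positive and negative calls over all clones were 134 and 531 with the surface removed (20.2% positive, against 47.5%), 380 and 624 with block medians removed (37.8%), 1148 and 1211 with array weights, and 993 and 462 with the repeated value kept (68.2%, 5674 clones). With 1 row per gene negative calls were 440 of 2644 rows, fewer being tested. Leaving out 1 array gave 100 to 880 positive and 322 to 904 negative calls, and with the surface also removed 15, 438, 11 and 12 positive and 312, 623, 191 and 266 negative without replicates 1 to 4.

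Members called positive and negative were 2 and 2 with the surface removed, 10 and 2 with block medians removed, 10 and 4 with quantile normalization, 10 and 6 with each spot a row (62 spots), 16 and 5 with array weights, and 13 and 1 with the repeated value kept (42 genes). Leaving out 1 array gave 2 to 10 and 0 to 4, and with the surface removed 0 to 10 and 0 to 2. Negative member calls by limma were 0 without replicate 3 or 4 (3 and 4 at an unadjusted p under 0.05), and with the surface removed positive ones were 0 without replicate 1, 3 or 4 (8, 4 and 7). The median of all members lay between 0.111 and 0.144 without 1 array, and was 0.11 with the surface removed and without replicate 2. That of complex IV lay between 0.108 and 0.188 without 1 array, and was 0.29 with the repeated value kept. With the surface removed, Ndufa6 was 0.18 without replicate 2 (adjusted p = 0.045), against -0.01, and Cycs -0.002 without replicate 1 (adjusted p = 0.99). Removing the surface without each array was added after seeing the data. Counting Ndufa4 in complex IV gave no value, as it was not measured. No paired analysis was possible because the arrays form 1 group.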
